A study of Mus musculus with 11 samples.

Results

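The mitochondrial ribosomal protein genes were examined as a set in the left ventricle of mice before and after myocardial infarction (MI). Members were selected by symbol alone, as the protein-coding genes named Mrpl or Mrps with a number and an optional letter, and 78 of the 25006 gene identifiers in the count tables met this rule. The set was proposed with the scaled levels of these genes in the 4 groups already known, so the levels and the changes after MI given here describe genes picked partly on those values. Of the 78 genes, 51 encode proteins of the large subunit and 26 encode proteins of the small subunit. The remaining gene, Mrps36, keeps a ribosomal name, but its product is now assigned to the 2-oxoglutarate dehydrogenase complex of the tricarboxylic acid cycle. All 78 genes passed the filter on low counts, as did 14779 genes in all.

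Mitochondria carry their own ribosome, which translates the few messages encoded by mitochondrial DNA, all of them for membrane subunits of the respiratory chain and ATP synthase. Its RNAs come from mitochondrial DNA, but its proteins are encoded in the nucleus, made in the cytosol and imported. Many have a bacterial counterpart, others exist only in mitochondria. Heart muscle is dense in mitochondria, and cardiomyocytes depend on respiration for contraction.

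Poly(A)-selected RNA from 11 left ventricles, 1 library per mouse, was sequenced in 4 groups. Control mice carried Vegfc fl/fl by the sample labels, whereas the protocol and the methods name LysMCre mice as controls. Vegfc-deficient mice carried Vegfc fl/fl with LysMCre, a Cre recombinase expressed from the Lyz2 locus in myeloid cells, so that deletion of the lymphatic growth factor gene Vegfc is directed at myeloid cells and not at the other cells of the ventricle. Naive mice (2 control, 3 Vegfc-deficient) had no infarction, and MI mice (3 control, 3 Vegfc-deficient) had a permanent ligation of the left anterior descending coronary artery and gave infarcted tissue 9 days later. The results section of the paper gives this time as 1 week. Age and sex are not stated in the sources used here.

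Total counts were 10824989 to 14585642 in naive libraries and 14580756 to 26782728 in MI libraries, so that the limit set by 3 counts lay between 0.101 and 0.363 CPM, the count of a gene scaled to the size of its library. Vegfc itself, measured in whole tissue, was 25.1 to 34.7 CPM in naive control, 27.5 to 34.5 in naive Vegfc-deficient, 21.9 to 45.5 in MI control and 22.4 to 29.4 in MI Vegfc-deficient libraries, and these ranges overlapped. Lyz2, the locus that holds the Cre, was 2121 to 5380 CPM in control libraries and 12.4 to 1392 CPM in all Vegfc-deficient libraries but the library labelled naive Vegfc-deficient M149, which stood at 4565 CPM and so goes against its label. Among MI Vegfc-deficient libraries Lyz2 was 1392 CPM in M35, 203 in M900 and 12.4 in M913. The cause of this spread was not tested. For the whole set of members, medians and counts of called or separated genes that use the library labelled M149 are also given without it. Those values come from a new fit of the other 10 libraries. Values by subunit, origin, site and promoter motif are given for all 11 libraries only. Xist was 0.624 to 11.8 CPM in every naive library and 188 to 403 CPM in every MI library, and 4 Y-linked genes summed to 152 to 195 CPM in naive and 0 to 1.84 CPM in MI libraries, so that sex and MI cannot be told apart in any comparison of MI with naive hearts. The same holds for the interaction and wherever a genotype difference in naive hearts is set beside that in MI hearts.

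Promoters of 4 members show the sequence context of the set. Windows of 250 bases before and 50 bases after the start site were found for 69 of the 78 members in RefSeq (GRCm38.p6), and short binding motifs were searched on both strands. Mrpl22 (chr11:58171414-58171663, plus strand) is shown because it holds both the core motif of ETS family factors (CCGGAAG) and that of NRF1 (GCATGCGC), a regulator of nuclear genes for mitochondrial proteins. Mrpl32 (chr13:14613038-14613287, minus strand) holds 4 NRF1 matches, the first 2 of which overlap. Mrpl53 (chr6:83108858-83109107, plus strand), among the most abundant members per length, holds 2 ETS matches. Mrps36 (chr13:100744660-100744909, minus strand), which fell the most after MI, holds neither. Each sequence is the 250 bases before the start site, 5′ to 3′ on the strand of the gene, with ETS and NRF1 matches in capitals.
Mrpl22: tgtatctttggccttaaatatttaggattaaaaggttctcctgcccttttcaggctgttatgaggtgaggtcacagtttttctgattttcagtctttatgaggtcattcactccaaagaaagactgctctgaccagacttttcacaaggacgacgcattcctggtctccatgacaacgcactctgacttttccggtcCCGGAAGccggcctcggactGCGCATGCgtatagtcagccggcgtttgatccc
Mrpl32: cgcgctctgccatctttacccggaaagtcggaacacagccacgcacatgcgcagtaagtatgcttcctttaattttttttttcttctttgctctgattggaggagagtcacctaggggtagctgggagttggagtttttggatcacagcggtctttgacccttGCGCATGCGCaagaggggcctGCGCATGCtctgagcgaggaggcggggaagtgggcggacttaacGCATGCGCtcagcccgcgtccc
Mrpl53: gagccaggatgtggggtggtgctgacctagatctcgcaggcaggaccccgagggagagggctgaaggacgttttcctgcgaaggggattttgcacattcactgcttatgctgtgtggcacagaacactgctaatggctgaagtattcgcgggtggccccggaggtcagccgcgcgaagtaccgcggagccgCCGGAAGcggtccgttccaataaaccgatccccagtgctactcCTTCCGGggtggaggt
Mrps36: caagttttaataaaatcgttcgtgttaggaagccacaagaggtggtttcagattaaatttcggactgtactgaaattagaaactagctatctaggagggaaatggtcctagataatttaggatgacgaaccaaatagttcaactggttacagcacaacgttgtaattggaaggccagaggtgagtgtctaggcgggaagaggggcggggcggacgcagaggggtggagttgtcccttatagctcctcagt

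The ETS core was present in 26 of the 69 member promoters (37.7%, 95% Wilson interval 27.2 to 49.5), against 18.2% of the 11585 promoters of genes tested and 9.93% of all 27025 promoters in the table. In the bases before the start site alone, the share was 26.1% of members and 14.3% of promoters of genes tested. The NRF1 core was present in 8 members (11.6%, 5.99 to 21.3), namely Mrpl9, Mrpl10, Mrpl17, Mrpl22, Mrpl32, Mrpl33, Mrpl39 and Mrps18b, against 5.42% of tested and 3.05% of all promoters. A YY1 core (AANATGGCG) was found in 15.9% of members, 5.27% of tested and 2.76% of all promoters, but in only 2.90% of members before the start site. The SP1 core (GGGCGG) was less frequent in members (49.3%) than in promoters of genes tested (65.2%) and more frequent than in all promoters (38.2%). The cyclic AMP response element (TGACGTCA) was found in 2.90% of members, 3.29% of tested and 2.03% of all promoters, and the site of the estrogen-related receptors (TCAAGGTCA) in 0 of 69 members, 0.311% of tested and 0.466% of all promoters. These are matches of letters and not measured binding, and the shares were not tested against each other.

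Mitochondrial ribosomal protein genes were abundant in the naive ventricle. Levels are compared between genes as CPM per kilobase of exon, and CPM were scaled by the trimmed mean of M-values (TMM). In naive control hearts the median member stood at 45.7 CPM per kilobase, at percentile 91.2 of all genes tested, whose median was 4.0. In naive Vegfc-deficient hearts the median member stood at 53.2 (56.6 without the library labelled M149), in MI control hearts at 17.6 and in MI Vegfc-deficient hearts at 15.6, where it lay at percentile 80.9. The median of all genes was 4.0, 4.38 and 4.35 in these 3 groups, so that members lost rank after MI but remained well above the typical gene.

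Proteins of one particle are not encoded by messages of one level. Per kilobase of exon, levels in naive control hearts ran from 0.387 for Mrpl23 to 295 for Mrpl12, which encodes the flexible stalk protein that recruits translation factors. After Mrpl12 came Mrps21 (261), Mrpl42 (252), Mrpl53 (217) and Mrpl30 (199). The lowest after Mrpl23 were Mrps10 (3.76), Mrps5 (4.69), Mrpl19 (9.80) and Mrpl48 (10.2). Exonic length joins the exons of every annotated transcript, so a gene with long minor transcripts is placed too low, and Mrps10 and Mrpl48 have joined lengths of 8079 and 8152 bases. Some members also share sequence with other genes. The median member shared 2.34% of its 50-base windows with transcripts of other genes, 30 members shared none, and 22 shared over 10%. The highest shares were those of Mrpl53 (78.5%), Mrps34 (77.8%), Mrps25 (73.9%) and Mrps18b (63.7%), and the counts of these genes are uncertain to that extent. Mrpl19, among the lowest members per length, shared 40.3%, so its count and its rank are uncertain as well. Mrpl23 shared 5.67%, with its pseudogene Mrpl23-ps1 among the other genes, and had the lowest CPM of the members in every library. The low end of the range is therefore uncertain.

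**Figure D1:**
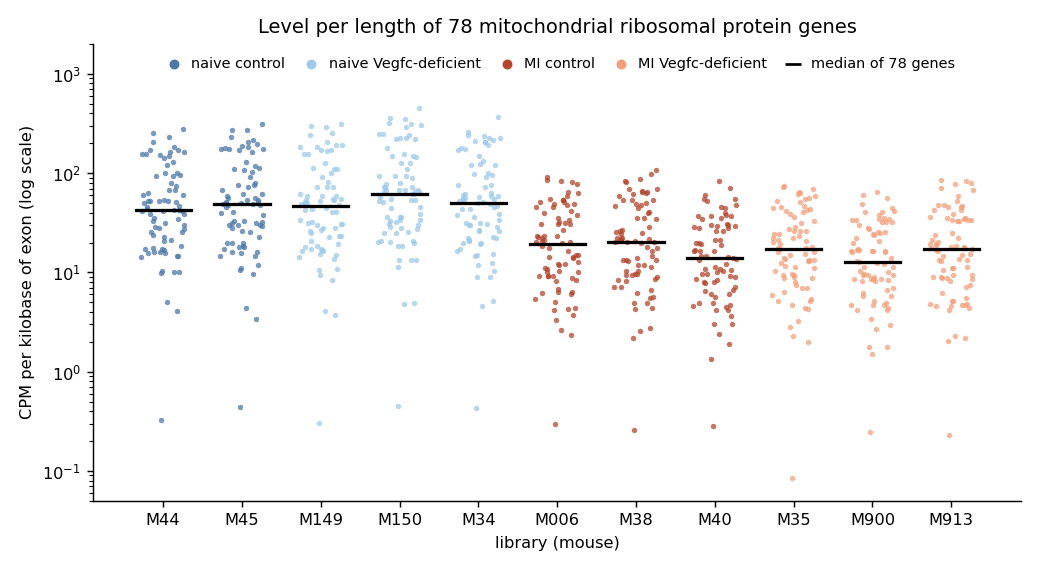
Level of each of the 78 genes in each of the 11 libraries, as CPM per kilobase of exon on a log axis; points are genes, black bars are medians of the 78 genes and colours are groups. All medians of naive libraries lie above all medians of MI libraries, and the single lowest point in each library is Mrpl23.

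The summed level of the 78 genes separated every naive from every MI library. It was 10534 and 11804 CPM in naive control hearts (11169 ± 898, SD, n = 2) and 11530 to 15316 CPM in naive Vegfc-deficient hearts (12908 ± 2093, n = 3). It was 3128 to 4439 CPM in MI control hearts (3902 ± 688, n = 3) and 2921 to 3914 CPM in MI Vegfc-deficient hearts (3486 ± 510, n = 3). The members took 0.922% to 1.17% of all counts in naive libraries and 0.341% to 0.490% in MI libraries. Expressed as the median log2 deviation of the members from their mean over all libraries, naive libraries lay between 0.71 (M44) and 1.18 (M150) and MI libraries between -0.96 (M900) and -0.44 (M38). In bulk tissue, fewer cells of a type and less RNA per cell cannot be told apart.

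Next, MI was compared with naive in control mice, to describe how the set differed in infarcted tissue. All 78 members had a lower mean after MI, and 76 were called lower at an adjusted p under 0.05 (quasi-likelihood test of edgeR, Benjamini-Hochberg adjusted across the genes tested), against 24.1% of all genes. In 77 members the MI libraries lay below the naive libraries with no overlap, against 33.0% of all genes. The median member changed by -1.45 on the log2 scale, 2.74-fold lower, with a range of -2.76 to -0.47, whereas the median of all genes was 0.13. The 51 large subunit genes had a median of -1.47 and the 26 small subunit genes -1.39, and the 46 genes with a bacterial counterpart had a median of -1.37 and the 31 that exist only in mitochondria -1.54.

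In Vegfc-deficient mice, all 78 members were called lower after MI by the same test, against 27.7% of all genes, and all 78 were separated between the groups, against 30.7%. The median was -1.73, 3.32-fold lower, the range was -3.14 to -0.72, and the median of all genes was 0.10. Without the library labelled naive Vegfc-deficient M149, the median was -1.82, and no member's change moved by more than 0.22 on the log2 scale. In that fit 78 members were called lower and 78 were separated, against 27.0% and 33.8% of all genes. The large and small subunit genes had medians of -1.73 and -1.72, and genes with and without a bacterial counterpart had medians of -1.73 and -1.67.

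Marker genes of cell types differed in level between naive and MI libraries. All 14 cardiomyocyte markers, among them Myh6, Tnnt2 and Ryr2, were called lower after MI in control mice (median -3.13) and 13 of 14 in Vegfc-deficient mice (median -2.69, with Ttn at -0.98 not called), and none was at 0 in any group. Their sum was 137565 to 150608 CPM in naive control, 124321 to 163633 in naive Vegfc-deficient, 4105 to 25553 in MI control and 8815 to 38865 in MI Vegfc-deficient libraries. Of 8 fibroblast markers, 6 were called higher in control and 7 in Vegfc-deficient mice (medians 2.93 and 2.91), where 26.3% and 30.0% of all genes were called higher, and their sum rose from 5601 to 5945 CPM in naive control to 29965 to 40149 CPM in MI control libraries. Of 8 macrophage markers, 6 were called higher in each genotype (medians 1.34 and 1.02). With M149 left out, 13 cardiomyocyte markers were called lower and 5 fibroblast and 7 macrophage markers higher in Vegfc-deficient mice.

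Markers of blood, vessel and fat cells also moved. Of 5 red cell markers, the haemoglobin genes among them, 0 were called in control mice (median -0.74) and 5 were called lower in Vegfc-deficient mice (median -3.02, and -3.31 without the library labelled M149). Their sum was 1092 to 2436 CPM in naive control, 1893 to 4383 in naive Vegfc-deficient, 804 to 1375 in MI control and 309 to 654 in MI Vegfc-deficient libraries. Of 8 T cell markers tested, 7 were called higher in control mice and 1 in Vegfc-deficient mice (0 without M149). Their sum was 12.0 to 12.4 CPM in naive control, 16.0 to 21.8 in naive Vegfc-deficient, 21.5 to 192 in MI control and 28.03 to 35.43 in MI Vegfc-deficient libraries, with Cd3e at 0 in naive control hearts. Of 7 endothelial markers, 2 were called lower in each genotype and 1 higher in Vegfc-deficient mice (medians -0.72 and -0.33, with 0 called higher without M149). Of 7 B cell markers, 0 were called in either genotype (medians 0.51 and 0.74). Of 6 neutrophil markers tested, 1 was called higher in control and 2 in Vegfc-deficient mice (medians 2.71 and 0.53). Of 4 adipocyte markers tested, 1 was called higher and 1 lower in control and 1 lower in Vegfc-deficient mice (medians 2.25 and 0.76). The part of these differences in the falls of the ribosomal genes was not tested.

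Relative to the cardiomyocyte markers the members were not lower after MI. Per 100 counts of these markers, members held 7.66 to 7.84 counts in naive control and 8.24 to 9.36 in naive Vegfc-deficient libraries, but 17.4 to 76.2 in MI control and 10.1 to 33.1 in MI Vegfc-deficient libraries. All MI libraries therefore lay above all naive libraries in this ratio, the reverse of their order in CPM. Members were counted from all cells of the tissue and the markers stand for cardiomyocytes, so the ratio is not a level per cardiomyocyte.

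Mrps36 changed the most in both genotypes (ENSMUSG00000061474, chr13:100735955-100744659, minus strand). Its level was 20.4 and 23.2 CPM in naive control, 18.5 to 32.0 in naive Vegfc-deficient, 1.72 to 5.28 in MI control and 2.26 to 3.58 in MI Vegfc-deficient libraries. No MI library came near a naive library, and the change was -2.76 (SE 0.40), 6.78-fold, in control and -3.14 (SE 0.38), 8.81-fold, in Vegfc-deficient mice. This is the member whose product is not part of the ribosome. It shared 36.2% of its windows with other genes, its pseudogenes Mrps36-ps1 and Mrps36-ps2 among them.

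Among ribosomal members, the largest change in control mice was that of Mrpl42, a protein of the large subunit found only in mitochondria (chr10:95480805-95501940, minus strand). It stood at 850 and 1010 CPM in naive control libraries, at 876 to 1289 in naive Vegfc-deficient, at 77.5 to 199 in MI control and at 94.2 to 239 in MI Vegfc-deficient libraries. The groups did not overlap, and the change was -2.62 (SE 0.45) in control and -2.83 (SE 0.42) in Vegfc-deficient mice. Mrps35, a mitochondria-specific protein of the small subunit, went from 159 and 195 CPM to 26.1 to 48.6 CPM in control mice (-2.23, SE 0.29). Mrpl55, a protein of the central protuberance, the part of the large subunit that faces the head of the small subunit, went from 146 and 191 CPM to 21.8 to 50.2 CPM (-2.23, SE 0.38). Mrpl18 of the same site went from 218 and 243 CPM to 39.99 to 64.8 CPM (-2.04, SE 0.24). In all 3 genes the lowest naive library was above the highest MI library by a wide margin.

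At the other end, 2 members were not called in control mice. Mrpl27, counted here with the central protuberance, was 51.6 and 75.4 CPM in naive control and 29.6, 44.8 and 52.7 CPM in MI control libraries, so that these groups overlapped (-0.58, SE 0.25, adjusted p = 0.0775 by the quasi-likelihood test of edgeR, Benjamini-Hochberg adjusted). Without MI control M38 it was called lower (-0.84). In Vegfc-deficient mice it was 70.8 to 96.0 CPM before and 26.7 to 34.9 CPM after MI, with no overlap (-1.53, SE 0.23). Mrpl23, at the rim of the exit tunnel, had the lowest level of the members in every library, at 1.61 and 2.17 CPM in naive control and 1.25 to 1.45 CPM in MI control libraries (-0.47, SE 0.45, adjusted p = 0.401 by the quasi-likelihood test of edgeR, Benjamini-Hochberg adjusted). In Vegfc-deficient mice it was 1.47 to 2.18 CPM before and 0.411 to 1.22 CPM after MI (-1.04, SE 0.41, adjusted p = 0.0496 by the same edgeR test, Benjamini-Hochberg adjusted), and this call was lost in 8 of the 11 fits that left out 1 library (M44, M45, M006, M40, M34, M150, M35 or M913), in which the change was -1.25 to -0.71.

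The other small changes in control mice were those of Mrpl52, Mrpl24 and Mrps10. Mrpl52, a mitochondria-specific protein of the large subunit, was 134 and 143 CPM in naive and 92.1 to 96.7 CPM in MI control libraries (-0.56, SE 0.14). Mrpl24, which lines the exit tunnel, was 97.3 and 103 CPM in naive and 59.4 to 69.1 CPM in MI control libraries (-0.65, SE 0.13). Mrps10, a protein of the head of the small subunit, was 27.6 and 33.2 CPM in naive and 15.2 to 22.5 CPM in MI control libraries (-0.68, SE 0.20). These 3 genes were separated between groups, but Mrpl52 was no longer called without naive control M45 (-0.50) or with the trend of counts on exonic length removed (-0.08), and Mrps10 was not called without naive control M44 (-0.55). In Vegfc-deficient mice the smallest change was that of Mrps5, which lies at the entry of the channel for messenger RNA, from 27.1 to 31.8 CPM before to 15.2 to 21.3 CPM after MI (-0.72, SE 0.14), followed by Mrpl10 of the stalk base (-0.86, SE 0.12).

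**Figure D2:**
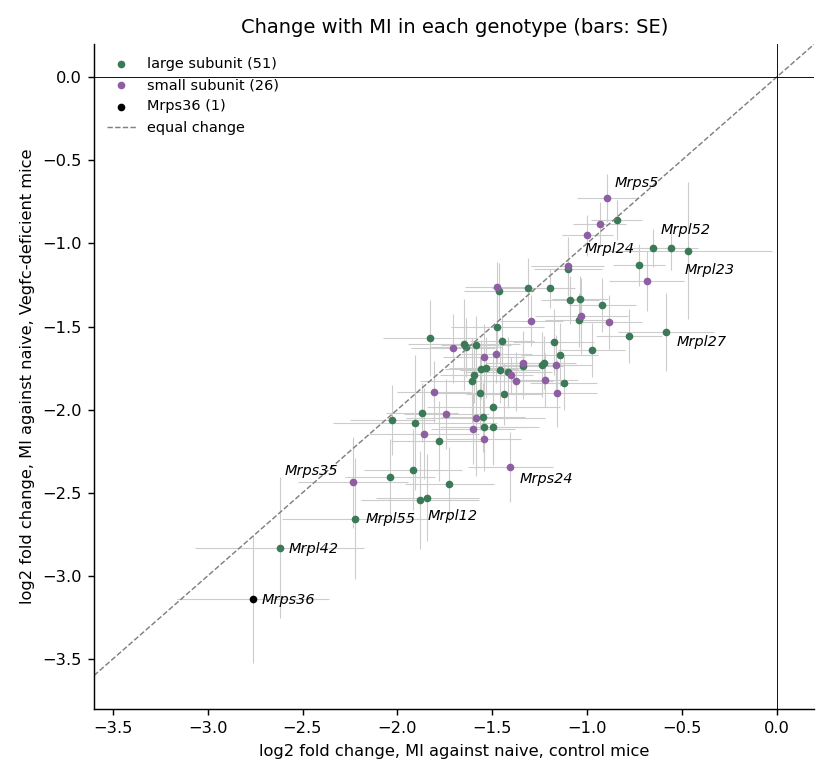
Change after MI of each of the 78 genes in control mice (x axis) and Vegfc-deficient mice (y axis) as log2 fold change; bars are standard errors, colours mark subunits and the dashed line marks equal change. All points lie below 0 on both axes, Mrps36 is the lowest on both at -2.76 and -3.14, and 68 of the 78 points lie below the dashed line.

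By site on the ribosome, the 3 genes of the stalk region were all called lower in both genotypes. Mrpl12 went from 424 and 479 CPM to 84.5 to 166 CPM in control mice (-1.88, SE 0.31) and by -2.54 in Vegfc-deficient mice. Mrpl11, which binds ribosomal RNA at the stalk base, changed by -1.44 and -1.91, and Mrpl10, which anchors the stalk, changed least of the 3, by -0.84 and -0.86. The stalk thus held both large and small changes.

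The exit tunnel, through which the growing chain leaves the large subunit, had the smallest median of the sites in control mice (-0.92, 5 of 6 genes called lower) and -1.45 in Vegfc-deficient mice (6 of 6). Mrpl17 changed by -0.72 and -1.13, and Mrpl22, whose promoter is printed above, by -1.12 and -1.84. Mrpl45, which tethers the ribosome to the inner membrane, changed by -1.46 and -1.76, and Mrpl47 by -1.61 and -1.82. This site includes Mrpl23, at the low level given above. In the central protuberance 6 of 7 genes were called lower in control (median -1.47) and 7 of 7 in Vegfc-deficient mice (median -1.53), with Mrpl38 at -1.47 and -1.29, Mrpl40 at -0.92 and -1.37, Mrpl46 at -1.55 and -2.05 and Mrpl48 at -1.04 and -1.33 beside those given above.

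Of the small subunit, Mrps12, the protein of the decoding centre, changed by -1.40 (SE 0.11) in control and -1.79 (SE 0.11) in Vegfc-deficient mice. Mrps24, at the channel for messenger RNA, changed by -1.40 (SE 0.22) and -2.34 (SE 0.21). The 3 Mrps18 paralogs descend from the bacterial protein S18 and occupy different places, that of Mrps18a in the large subunit. All were called lower in both genotypes, Mrps18a by -1.87 and -2.02, Mrps18b by -1.48 and -1.26 and Mrps18c by -1.16 and -1.73. Mrpl58, a peptidyl-tRNA hydrolase built into the large subunit that frees stalled ribosomes, changed by -1.56 and -1.76.

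Genes that make or serve the mitochondrial ribosome were also lower after MI. All 5 ribosomal proteins that do not carry the Mrp name were called lower in both genotypes (medians -1.44 and -1.80), among them Dap3, at -1.53 in control mice, and Ptcd3, at -2.13. Of 25 assembly factors, 19 were called lower in control and 22 in Vegfc-deficient mice (medians -0.79 and -1.01), with the ribosomal RNA methyltransferases Mrm3 at -1.70 and -1.85 and Nsun4 at -1.31 in control mice. Of 12 translation factors, 11 were called lower in each genotype (medians -1.23 and -1.29), with the elongation factor gene Gfm1 at -2.33 and -1.69, while Mtfmt, the formyltransferase for initiator tRNA, was at -0.04 in control mice and not called. Of 17 mitochondrial aminoacyl-tRNA synthetases, 13 and 14 were called lower (medians -0.98 and -0.75), with Fars2 at -1.91 in control mice. Of 12 genes of mitochondrial transcription and mRNA stability, 8 were called lower in each genotype (medians -0.98 and -1.16), with Lrpprc, which stabilizes mitochondrial messages, at -2.01 and -1.47. These lists overlap in function with the members and were measured in the same libraries. With M149 left out, the counts called lower in Vegfc-deficient mice were 5, 22, 11, 14 and 9 in the order of these lists (medians -1.92, -1.03, -1.40, -0.78 and -1.22).

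Nuclear-encoded respiratory chain subunits changed by more than the members. Of 78 such genes, 75 were called lower in control and 76 in Vegfc-deficient mice (medians -2.43 and -2.65, the latter -2.73 with 76 called without M149). Per 100 counts of these subunits, members held 9.48 to 9.54 counts in naive control, 9.43 to 10.5 in naive Vegfc-deficient, 16.1 to 26.1 in MI control and 13.8 to 23.5 in MI Vegfc-deficient libraries. Every MI library was above every naive library in this ratio. Of 12 genes for proteins used as measures of mitochondrial mass, 11 and 12 were called lower (medians -1.68 and -1.70, the latter -1.80 with 12 called without M149), citrate synthase (Cs) by -2.34 and the outer membrane channel Vdac1 by -2.16 in control mice. Against this list the ratio was 64.7 to 75.5 in naive and 82.1 to 152 in MI libraries. The messages of the 13 protein-coding genes of the mitochondrial genome, the templates of this ribosome, were listed at 0 in every library and were not compared.

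Cytosolic ribosomal proteins, the counterpart outside mitochondria, had another pattern. Of 79 tested, 3 were called lower and 2 higher after MI in control mice (median 0.00), where 24.1% of all genes were called lower and 26.3% higher. In Vegfc-deficient mice 52 were called lower (median -0.83), and 49 without the library labelled M149 (median -0.91). Of all genes, 27.7% were called lower there, and 27.0% without M149. No cytosolic ribosomal protein gene was called in the interaction, with or without M149, so these counts do not show that the genotypes differ. Per 100 counts of cytosolic ribosomal protein genes, members held 43.1 to 50.6 counts in naive libraries, 15.4 to 19.5 in MI control and 20.8 to 32.0 in MI Vegfc-deficient libraries. The balance of the messages for the mitochondrial and the cytosolic ribosome was therefore lower in every MI library than in every naive library.

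**Figure D3:**
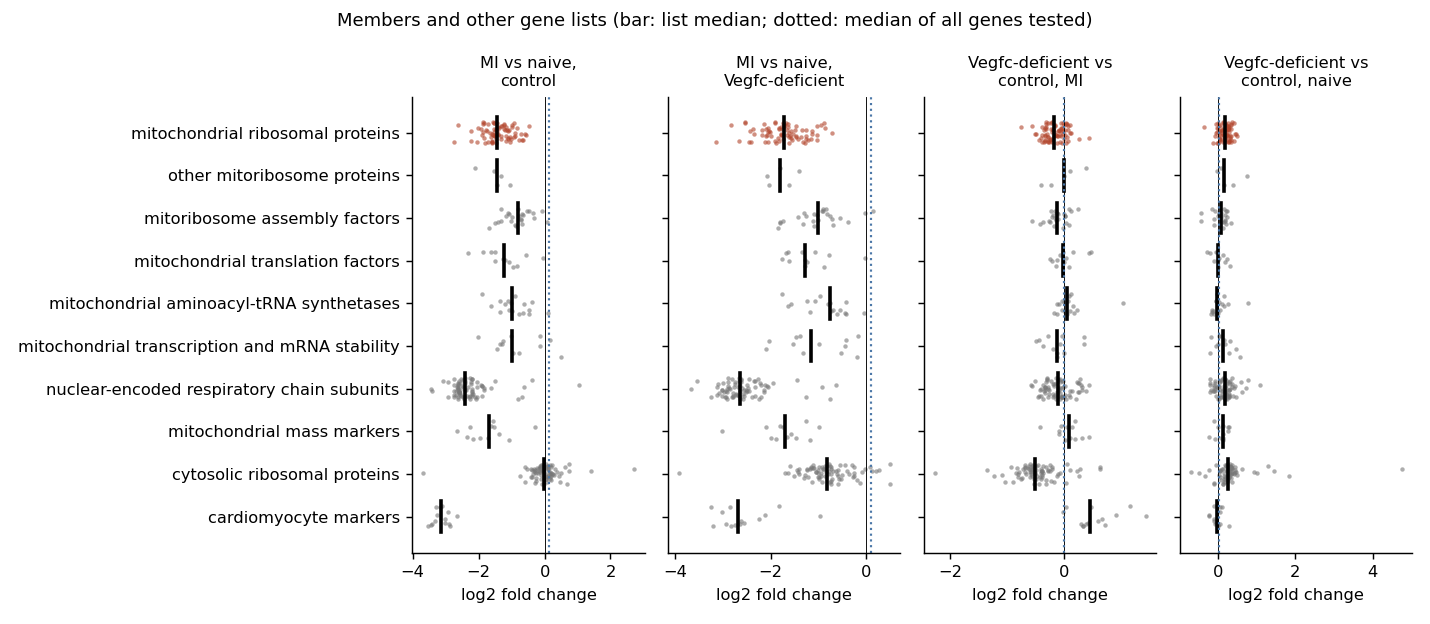
Log2 fold change of single genes (points) in 10 gene lists and 4 comparisons; black bars are list medians and dotted lines are the medians of all genes tested. Members have medians of -1.45 and -1.73 after MI, between the respiratory chain subunits at -2.43 and -2.65 and the cytosolic ribosomal proteins at 0.00 and -0.83, and medians of -0.17 and 0.18 between genotypes.

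Vegfc-deficient and control mice were then compared within MI and within naive hearts, to describe the set by genotype. No member was called in MI hearts (quasi-likelihood test of edgeR, Benjamini-Hochberg adjusted), as was the case for 0% of all genes. At an unadjusted p under 0.05 there were 8 members, all lower in Vegfc-deficient hearts (Mrps12, Mrps24, Mrpl20, Mrpl22, Mrpl57, Mrpl52, Mrpl24 and Mrpl17), against 7.94% of all genes. The median was -0.17, with 62 members lower and 16 higher, and it was -0.0011 without MI control M38. In 9 members all MI Vegfc-deficient libraries lay below all MI control libraries, against 6.12% of all genes. DESeq2's Wald test called 1 member, Mrps12, among 62 genes called in all, which is 0.787% of those it gave an adjusted p, and limma-voom called 0 of all genes.

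In naive hearts no member was called either, as was the case for 0% of all genes, and DESeq2 and limma-voom called 0 members, against 0.0951% and 0.0406% of all genes. Only Mrps12 had an unadjusted p under 0.05 in the edgeR fit, against 3.38% of all genes. The median was 0.18, with 67 members higher and 11 lower in Vegfc-deficient hearts, and it was 0.25 without the library labelled M149 and 0.040 without M150. In 16 members all Vegfc-deficient libraries lay above both control libraries, against 12.3% of all genes. Mrps12 alone was separated in the other direction, against 10.1% of all genes. Without M149, 76 members were higher and 2 lower, and 0 were called, against 17 of the 14791 genes tested in that fit. At an unadjusted p under 0.05 there were 3 members, against 983 of these genes in the edgeR fit. In that smaller set of libraries 39 members were separated upward, against 24.6% of all genes.

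Mrps12 (ENSMUSG00000045948, chr7:28739641-28741820, minus strand) was the member with the smallest p between genotypes. In MI hearts it stood at 28.9, 30.0 and 32.0 CPM in control and at 16.8, 18.5 and 18.9 CPM in Vegfc-deficient libraries, with no overlap (-0.75, SE 0.10, 1.68-fold lower, adjusted p = 0.374 by the quasi-likelihood test of edgeR, Benjamini-Hochberg adjusted, and 8.35e-06 by DESeq2's Wald test). In naive hearts it stood at 77.1 and 82.9 CPM in control and at 57.7, 64.8 and 64.9 CPM in Vegfc-deficient libraries, again with no overlap (-0.36, SE 0.11, unadjusted p = 0.0104 in the edgeR fit, adjusted p = 1). Without the library labelled M149 the naive difference was -0.30. All Vegfc-deficient libraries were thus lower than all control libraries within each condition, and the quasi-likelihood test did not pass the threshold in either. Mrps12 shared no 50-base window with another gene.

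The difference of the MI changes between genotypes was tested as an interaction. No member was called (quasi-likelihood test of edgeR, Benjamini-Hochberg adjusted, with DESeq2 and limma-voom also at 0), as was the case for 0% of all genes in edgeR and limma-voom and 0.456% in DESeq2, and 12 members had an unadjusted p under 0.05, all with a lower value in Vegfc-deficient mice, against 8.30% of all genes. The median was -0.38, with 68 members below 0 and 10 above, and it was -0.21 without M150. Mrpl27 (-0.95, SE 0.35), Mrps24 (-0.94, SE 0.31) and Mrpl20 (-0.78, SE 0.24) had the largest values, with adjusted p of 0.549, 0.543 and 0.543 in the edgeR fit with Benjamini-Hochberg adjustment. The fall after MI was therefore larger in Vegfc-deficient mice for most members without being shown to differ for any of them. Without the library labelled M149 the median was -0.45, 73 members were below 0 and 0 were called, against 1 of all 14791 genes tested. At an unadjusted p under 0.05 in that edgeR fit there were 18 members, against 1734 of these genes.

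Mrpl20, a protein of the large subunit that binds ribosomal RNA (ENSMUSG00000029066, chr4:155802878-155809975, plus strand), changed sides between conditions, which also differed in sex. It was 155 and 181 CPM in naive control and 189, 201 and 250 CPM in naive Vegfc-deficient libraries (0.34, SE 0.18, unadjusted p = 0.0805 in the edgeR fit). After MI it was 88.1, 91.6 and 114 CPM in control and 67.6, 69.5 and 80.3 CPM in Vegfc-deficient libraries (-0.44, SE 0.16, unadjusted p = 0.0193 in the edgeR fit). The groups did not overlap in either condition, and their order was opposite. Besides Mrpl20, Mrpl57 was the only member of this kind, so 2 of 78 members (2.56%) and 223 of all genes tested (1.51%) were lower in all MI and higher in all naive Vegfc-deficient libraries. With M149 left out, 5 members (6.41%) had this order, Mrpl9, Mrpl17 and Mrpl52 besides these, and 402 of all genes tested (2.72%). Mrpl57, named here after its values were seen, was 67.7 and 77.7 CPM in naive control, 78.6 to 107 in naive Vegfc-deficient, 33.4 to 41.5 in MI control and 25.4 to 32.6 in MI Vegfc-deficient libraries.

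Mrps24 was 191 and 241 CPM in naive control and 250 to 358 CPM in naive Vegfc-deficient libraries, and 64.9 to 93.4 CPM in MI control and 47.4 to 67.3 CPM in MI Vegfc-deficient libraries. Its groups overlapped in MI hearts and not in naive hearts. The member with the highest value in MI Vegfc-deficient against control hearts was Mrpl16, a protein of the large subunit near its catalytic centre, at 19.0 to 29.9 CPM in control and 27.8 to 47.8 CPM in Vegfc-deficient libraries (0.43, SE 0.22, unadjusted p = 0.0806 in the edgeR fit). That range was set by M35, the other 2 Vegfc-deficient libraries lying at 27.8 and 30.0 CPM.

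**Figure D4:**
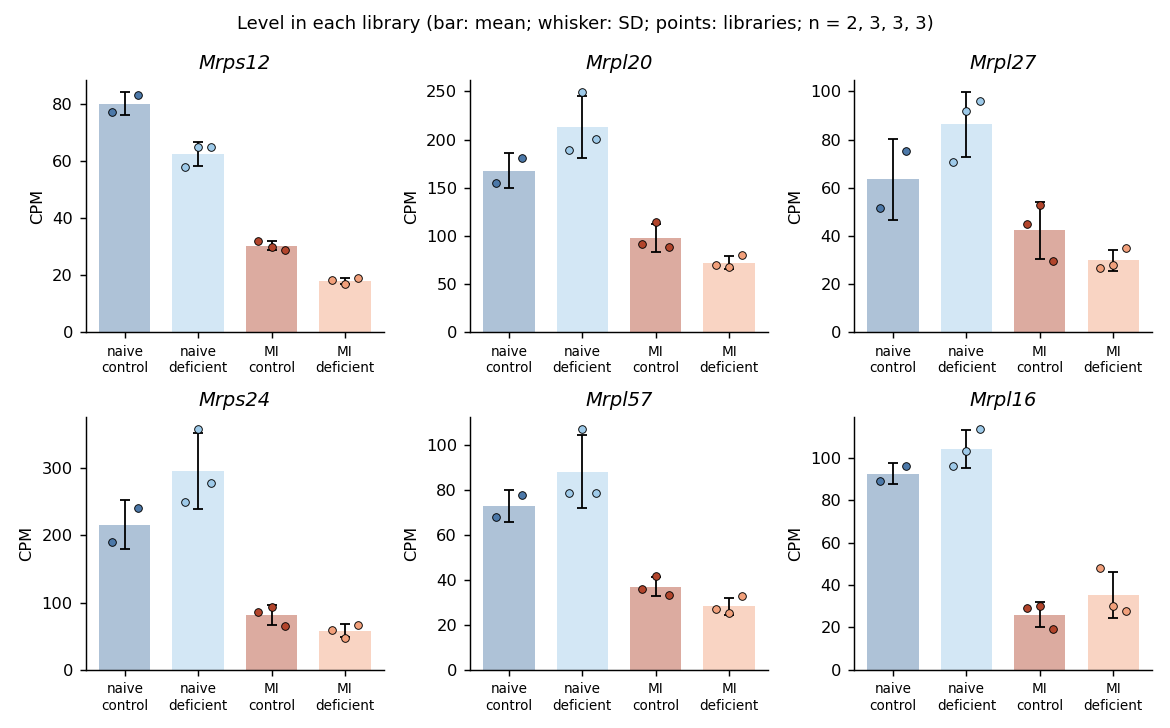
CPM of 6 members in each library by group (points), with the group mean as a bar and the SD as a whisker (2, 3, 3 and 3 libraries). Mrps12 is lower in Vegfc-deficient than in control libraries within naive and within MI hearts, Mrpl20 and Mrpl57 are higher in naive and lower in MI Vegfc-deficient libraries, and Mrpl16 has 1 high MI Vegfc-deficient library at 47.8 CPM.

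Other measures moved between genotypes with the members. In MI hearts 71 of 79 cytosolic ribosomal protein genes were lower in Vegfc-deficient mice (median -0.50), and in naive hearts 72 were higher (median 0.26), with 0 called in either. Cardiomyocyte markers had a median of 0.46 in MI hearts, in the opposite direction to the members. In MI hearts all 5 red cell markers were lower in Vegfc-deficient mice (median -1.37) and all 8 T cell markers were lower (median -1.55), while all 7 B cell markers were higher (median 1.02). Among MI libraries each T cell marker was highest in control M38. Lck was 37.2 CPM in M38, 6.41 and 4.22 in the other MI controls and 5.22 to 6.83 in MI Vegfc-deficient libraries. Cd3g was 47.6 CPM in M38, 10.7 and 3.52 in the other MI controls and 4.64 to 7.25 in MI Vegfc-deficient libraries. In naive hearts all 5 red cell markers (median 0.58), 7 of 8 T cell markers, all 7 B cell markers (0.79) and all 6 neutrophil markers (1.58) were higher, and in the interaction all 8 T cell markers were below 0 and the red cell and neutrophil markers had medians of -2.41 and -1.56. None of these markers was called by genotype or interaction. Neutrophil markers in MI hearts had a median of -0.16, macrophage markers had medians of -0.24 and 0.03 in MI and naive hearts, and fibroblast markers 0.03 and 0.12. Without M149, 5 of 6 neutrophil markers (median 1.66) and 7 of 8 T cell markers were higher in naive hearts. All 7 B cell (0.80) and all 5 red cell markers (0.84) were also higher there. Naive medians of macrophage and fibroblast markers were -0.15 and 0.30. In the interaction 7 of 8 T cell markers were below 0, with red cell and neutrophil medians of -2.65 and -1.64. Pax5 reached at most 0.977 CPM and Cd3e at most 0.326 CPM in naive libraries. The part of these markers in the genotype values of the members was not tested. Short genes moved the same way as well. The 402 tested genes with under 1000 bases of exon had a median of -0.36 in MI hearts, 0.21 in naive hearts and -0.56 in the interaction, where the 9 members of that length had -0.26, 0.32 and -0.56. The members have a median exonic length of 2394 bases, and removing the trend of counts on length in each library took the interaction median from -0.38 to -0.16 and the MI genotype median from -0.17 to -0.06. In the comparisons of MI with naive, genes under 1000 bases had medians of -0.52 in control and -1.11 in Vegfc-deficient mice, where the 9 members had -1.54 and -2.10. In the fit without M149, genes under 1000 bases had medians of -1.09 for MI in Vegfc-deficient mice, 0.25 between genotypes in naive hearts and -0.59 in the interaction, and the 9 members -2.19, 0.37 and -0.64.

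Changes after MI are given next by promoter motif. In control mice members with the ETS core had a median of -1.37 after MI and those without it -1.47, and in Vegfc-deficient mice the medians were -1.74 and -1.72. The 8 members with the NRF1 core had medians of -1.20 and -1.61, against -1.47 and -1.76 without it. Members with the YY1 core had medians of -1.41 and -1.61, against -1.45 and -1.73 without it, and those with the SP1 core -1.37 and -1.72, against -1.47 and -1.75. These medians were not tested against each other.

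Members often start head to head with another gene. A protein-coding gene on the opposite strand began within 1000 bases of the start of 32 of the 78 members (41.0%), against 2037 of 14170 coding genes tested (14.4%), and the difference in these shares was not tested. Of the 30 neighbours that were tested, 2 are themselves members, Mrpl46 and Mrps11, which start 412 bases apart with overlapping 5′ ends and were both called lower. Of the other 28 neighbours, 10 were called lower, 4 higher and 14 neither after MI in control mice, with a median of -0.01, where 24.1% of all genes were called lower, and the change of 24 was less negative than that of their member. In Vegfc-deficient mice 8 were called lower, 5 higher and 15 neither, with a median of -0.06, where 27.7% of all genes were called lower, and the change of 24 was again less negative than that of their member. In the fit without M149, 8 were called lower and 7 higher there (median -0.11). Members were picked partly on their values and fell by more than the typical gene. The counts of less negative neighbours are therefore not a result about such pairs.

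Neighbours named here were chosen as examples after their values were seen. Mrpl57 changed by -0.98 and Ska3, a kinetochore gene that starts 49 bases away, by 2.90. Mrpl27 changed by -0.58 and Eme1, an endonuclease gene of DNA repair, by 2.59. Mrpl51 changed by -1.92 and the condensin gene Ncapd2 by 0.66, which was not called. The neighbours Ndufs6 and Ndufb5, which encode respiratory chain subunits, changed by more than the member, with Ndufs6 at -2.62 beside Mrpl36 at -1.09 and Ndufb5 at -2.55 beside Mrpl47 at -1.61. Mrps12 starts 172 bases from Sars2, the mitochondrial seryl-tRNA synthetase. Sars2 changed by -0.66 after MI in control mice and by 0.18 between genotypes in MI hearts, where Mrps12 had -0.75. The strand setting of the counting is not given in the sources used here, so reads from overlapping parts of such pairs may be assigned to either gene.

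**Figure D5:**
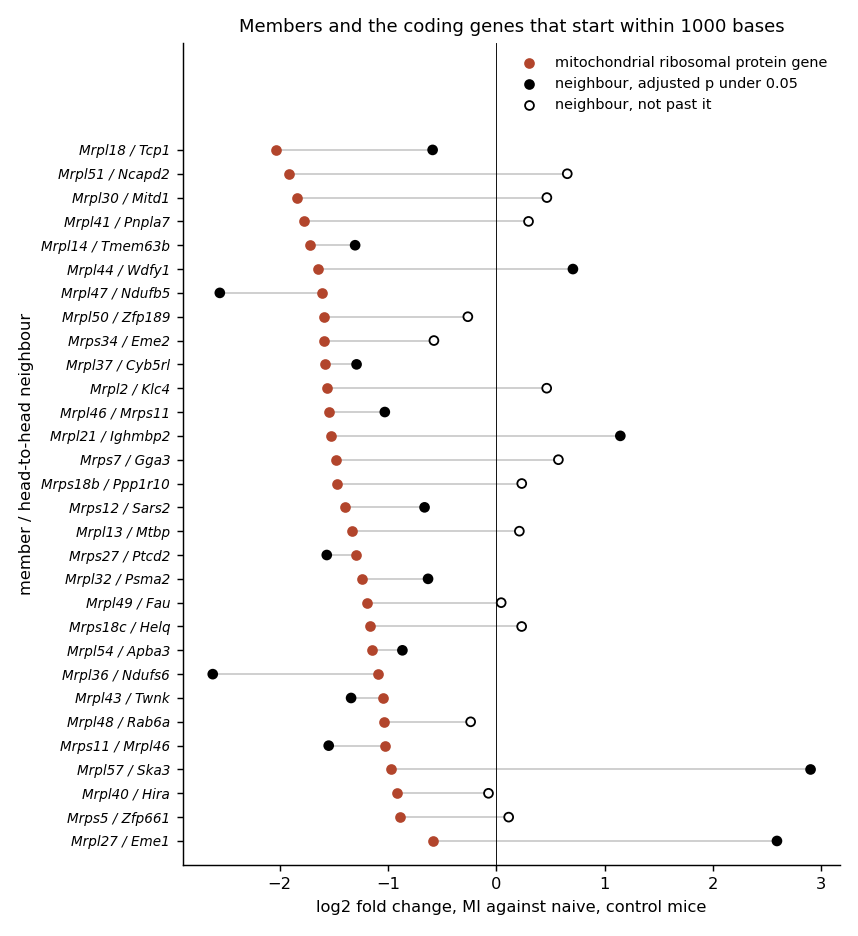
Log2 fold change after MI in control mice of members (red) and of the coding genes that start within 1000 bases on the opposite strand (black where adjusted p was under 0.05, open where it was not), 1 line per pair, with the Mrpl46 and Mrps11 pair drawn from each side. All red points lie left of 0, while neighbours spread from -2.62 (Ndufs6) to 2.90 (Ska3).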

How the data were processed

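Per the labels and methods, the authors made stranded poly(A) libraries from left ventricular RNA, sequenced them and deposited whole-number counts per Ensembl gene for each library, unnormalized. The submitters' processing notes name cutadapt 1.13, STAR, HTSeq 0.6.1p1, DESeq2 1.14.1 and mm10. The strand setting is not given in the sources used here.

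Symbols, coordinates and exonic lengths came from GENCODE M21 (GRCm38), and promoters from RefSeq (GRCm38.p6). From the deposited counts, genes were kept by filterByExpr and scaled by TMM, and 1 quasi-likelihood model of the 4 groups was fitted to 11 libraries (edgeR 4.0.16, R 4.3.3), with 5 contrasts and Benjamini-Hochberg adjustment over 14779 genes. The standard error is the log2 fold change divided by the square root of F. Total counts ran from 10824989 to 26782728, and 3 counts set the limit of detection, for counting error only. Replicates differed by 8.65 to 172 times counting noise.

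Alternatives were DESeq2 size factors, DESeq2 1.42.0 (Wald test), limma-voom 3.58.1, other filters, loess correction for length or GC content, a threshold of 0.01, only the groups compared, TMM without ribosomal, haemoglobin and mitochondrial genes, and leaving out each library. Scripts were tested on simulated data.

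The members and gene lists were chosen with earlier results of these data known. Named members are those of the ribosomal sites described, Mrps36, the 5 highest and 5 lowest per length in naive control hearts, the 5 largest and 5 smallest changes in each comparison, and up to 4 genes of each other list with the smallest p. Some further genes were named outside this rule after their values were seen, Mtfmt and Ttn among them. Lists covered other mitoribosome proteins, assembly factors, translation factors, aminoacyl-tRNA synthetases, mitochondrial transcription and mRNA stability, respiratory chain subunits, mitochondrial mass, cytosolic ribosomal proteins and markers of cardiomyocytes, fibroblasts, macrophages, endothelial cells, T cells, B cells, neutrophils, red cells and adipocytes.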

Additional observations from a re-analysis of the deposited data

How the results depend on the processing

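No paired analysis was possible because the labels give each mouse its own number and no number is shared between groups. The number of members called lower after MI was 75 to 76 in control and 77 to 78 in Vegfc-deficient mice under the alternatives with all libraries, and 73 (without M45) to 77 (without M38) and 77 to 78 with 1 library left out. Medians with 1 library left out ran from -1.61 to -1.34 for MI in control mice, -1.82 to -1.57 for MI in Vegfc-deficient mice, -0.29 to -0.0011 for genotype in MI hearts, 0.040 to 0.25 for genotype in naive hearts and -0.48 to -0.21 for the interaction, and the counts called by genotype or interaction were 0 throughout. DESeq2's Wald test called 1 member lower in MI Vegfc-deficient hearts, Mrps12 (-0.75). With the length trend removed the medians were -1.50 for MI in Vegfc-deficient mice and -0.16 for the interaction, and Mrpl52 in control mice was at -0.08 and no longer called. The causes of these changes were not tested. Mrpl27 passed the threshold in control mice without M38 (-0.84, adjusted p = 0.0227 in the edgeR fit), Mrps10 lost its call there without M44 and at a threshold of 0.01, and Mrpl52 lost it without M45.

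Values of single members were recomputed only for those picked by the rule given above. For genotype and interaction these were the members with the highest and lowest values, so sign changes of other members are not listed. The median for genotype in MI hearts went from -0.17 to -0.0011 without MI control M38, so unlisted members may have changed sign there. Among the recomputed members, values that changed sign were all of members not called. The highest or lowest value with 1 library left out is given beside each. For genotype in MI hearts they were Mrps5 (-0.0019 with limma-voom, -0.017 without M35, up to 0.23 without M913) and Mrpl44 (-0.14 without M40, -0.12 without M35, up to 0.32 without M900). For genotype in naive hearts they were Mrps31 (0.0096 without M45, 0.067 without M149), Mrps5 (0.057 without M44, 0.012 without M149) and Mrpl4 (0.017 without M149, down to -0.15 without M34). For the interaction they were Mrps31 (-0.023 with limma-voom, -0.052 without M40, -0.037 without M149, -0.12 without M35, up to 0.26 without M900) and Mrpl16 (-0.018 without M35, up to 0.42 without M913). In all, 1763 of the recomputed fold changes of named members kept direction and side of the threshold, 14 changed sign, 15 lost a call and 2 gained a call. Genotype within naive hearts rests on 2 control libraries, which limits what it can show.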
